A study of Mus musculus with 12 samples.

Results

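Proteasome genes were examined in the aorta of 12 mice of the outbred CD-1 stock, all female, of which 6 received CM-695 and 6 received saline vehicle. The members were all genes whose platform symbol begins with Psm, a subunit letter from a to g and a number, measured by a probe set naming no other gene. There were 49 such genes among 22180 in all. Of these, 47 encode subunits, caps, an inhibitor or assembly factors of the proteasome. The other 2, Psmc3ip and Psme3ip1, encode proteins named for binding a proteasome protein and are not subunits. Psma4, an alpha ring gene, had only probe sets that also name another gene, so it is not among the 49. CM-695, an inhibitor of histone deacetylase 6 (HDAC6) and phosphodiesterase 9, was injected intraperitoneally at 80 mg/kg 2 h and 1 h before sacrifice. The sources differ on the vehicle: per the series design it was injected once, and the treatment protocol gives no number. If the design is right, injection number cannot be told apart from the drug. No genetic change is recorded, ages and times of collection were not stated in the labels, and each array held RNA of 1 mouse.

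The proteasome degrades proteins tagged with ubiquitin. Its core particle is a barrel of alpha and beta rings, with the proteolytic sites inside the beta rings, and a regulatory particle made of a base and a lid recognises, unfolds and feeds in the substrate. Cells exposed to interferon-gamma replace the catalytic beta subunits with those of the immunoproteasome. The transcription factor NRF1 raises most subunit genes together when proteasome activity falls short. HDAC6, the enzyme blocked by CM-695, binds ubiquitinated proteins and helps carry protein aggregates to the aggresome, so proteasome transcripts bear on a neighbouring route of protein disposal.

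The promoters of 4 members are shown because each had the difference farthest from 0 in its functional class: Psmb9 (immunoproteasome), Psmd10 (assembly), Psme4 (alternative cap) and Psmd12 (lid). Each sequence is the RefSeq window of build GRCm38.p6 from 250 bases before to 50 bases after the gene's start, read 5′ to 3′ on the gene's strand. Capitals mark matches, on either strand, to TGACNNNGC or TGAGNNNGC (the antioxidant response element core to which NRF1 and NRF2 bind), CCAAT and GGGCGG (a GC box).
Psmb9, chr17:34187281-34187580 (minus strand): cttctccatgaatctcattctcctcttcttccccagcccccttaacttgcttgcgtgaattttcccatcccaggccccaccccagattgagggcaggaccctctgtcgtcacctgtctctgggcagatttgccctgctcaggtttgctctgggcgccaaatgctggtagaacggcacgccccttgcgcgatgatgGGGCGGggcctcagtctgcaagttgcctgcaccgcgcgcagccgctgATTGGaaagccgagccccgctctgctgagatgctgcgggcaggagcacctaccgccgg
Psmd10, chrX:140956662-140956961 (minus strand): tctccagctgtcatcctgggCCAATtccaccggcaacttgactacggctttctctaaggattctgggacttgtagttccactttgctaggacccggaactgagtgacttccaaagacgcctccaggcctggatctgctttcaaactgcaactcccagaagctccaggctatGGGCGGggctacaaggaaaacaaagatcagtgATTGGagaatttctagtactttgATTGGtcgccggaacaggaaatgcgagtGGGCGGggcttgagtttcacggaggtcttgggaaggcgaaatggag
Psme4, chr11:30771525-30771824 (plus strand): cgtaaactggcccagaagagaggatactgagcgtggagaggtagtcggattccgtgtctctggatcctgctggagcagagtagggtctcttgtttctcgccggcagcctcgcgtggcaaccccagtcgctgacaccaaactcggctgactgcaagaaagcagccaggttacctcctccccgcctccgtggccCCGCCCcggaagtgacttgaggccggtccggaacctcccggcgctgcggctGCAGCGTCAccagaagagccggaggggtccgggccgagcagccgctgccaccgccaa
Psmd12, chr11:107479278-107479577 (plus strand): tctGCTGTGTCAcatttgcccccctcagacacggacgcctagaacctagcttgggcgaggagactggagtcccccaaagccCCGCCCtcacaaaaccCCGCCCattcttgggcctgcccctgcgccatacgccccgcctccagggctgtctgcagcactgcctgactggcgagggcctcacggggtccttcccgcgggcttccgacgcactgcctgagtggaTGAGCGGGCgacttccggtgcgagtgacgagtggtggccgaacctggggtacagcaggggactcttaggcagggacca

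The 4 windows differed in these letters. The antioxidant response element core was matched in Psme4 and Psmd12 and in neither Psmb9 nor Psmd10. Psmd10 held 3 CCAAT matches and Psmb9 held 1. No marked matches overlapped. A match is a string of letters and does not show that a factor binds there.

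Each value below is the deposited log2 expression of a gene's probe set. A difference is CM-695 minus vehicle on the log2 scale, with the standard error (SE) of limma, a linear model fitted to all 41345 probe sets. Adjusted p-values are Benjamini-Hochberg values over the whole table, and the threshold was 0.05. The arrays had medians of 4.69 to 4.74 and correlated with each other at 0.957 to 0.977. All 7 smooth muscle and all 7 endothelial markers had a mean above the median of all probe sets, as did 5 of 5 adipocyte and 7 of 7 heart muscle markers, so markers of tissue around the vessel were measured along with those of its wall. In such bulk tissue, fewer cells of a type and less RNA per cell cannot be told apart. Markers of heart muscle lay below 0 in 7 of 7 genes (median -1.68, mean level per mouse 7.79 to 10.09 after vehicle and 6.13 to 9.03 after CM-695). Leukocyte markers lay above 0 in 6 of 7 genes (median 0.25, mean level per mouse 5.80 to 6.37 and 5.86 to 6.52). Fibroblast markers lay below 0 in 6 of 6 genes (median -0.46, 9.12 to 9.96 and 8.84 to 9.35). Smooth muscle markers did so in 6 of 7 (median -0.28, 9.59 to 10.68 and 9.03 to 11.26). Adipocyte markers lay above 0 in 4 of 5 (median 0.02, 9.52 to 9.96 and 9.26 to 10.22). Endothelial markers lay above 0 in 6 of 7 (median 0.07, 7.57 to 7.90 and 7.72 to 8.02). Liver markers lay above 0 in 5 of 5 (median 0.39, 3.96 to 4.60 and 4.13 to 6.59). Only 2 of these 5 had a mean above the median of all probe sets, and CM-695 mice 4 and 5 were highest, at 5.26 and 6.59. No marker passed the threshold, and the part of fibroblast or liver RNA in the results was not tested. Mouse 2 of the CM-695 group had the highest smooth muscle level (11.26) and the lowest adipocyte level (9.26) of all 12 mice.

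No proteasome gene passed the threshold, and the differences of nearly all members were small. Of 49 members, 0 passed at adjusted p under 0.05, while 0.167% of all genes did, and the lowest adjusted p in limma was 0.343 (Psme4). The members' differences ran from -0.27 (Psme4) to 0.37 (Psmb9), with a median of 0.08 against 0.02 over all genes. For 47 of 49 members the whole 95% confidence interval lay within a 1.5-fold change either way, and 84.1% of all genes met this. These intervals are per gene and are not adjusted. The exceptions were Psmb9, with an upper bound of 1.61-fold, and the non-subunit Psmc3ip, with one of 1.89-fold. At an unadjusted p under 0.05, 2 members were higher (Psmb9 and Psmd10) and 1 lower (Psme4). Over all genes 9.10% met this level, 4.96% higher and 4.14% lower.

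Small positive differences were more frequent among the members than among all genes. Of 49 members, 40 lay above 0 and 9 below, while 55.3% of all genes lay above 0. Among genes whose mean exceeded the median of all probe sets, 53.0% lay above 0, as did 37 of the 45 members in that range. The members vary together from mouse to mouse, as described below, so they are not 49 separate observations and this count was not tested. With the leukocyte or the adipocyte marker mean as a covariate, the median was 0.03 in both cases, with 31 and 32 members above 0. With the smooth muscle marker mean it was 0.05, with the heart muscle marker mean 0.12, and without vehicle mouse 4 it was 0.05. The heart muscle marker mean itself differed between the groups, at 9.22 after vehicle and 7.63 after CM-695. Fits with it as a covariate cannot separate the drug from that shift.

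**Figure D1:**
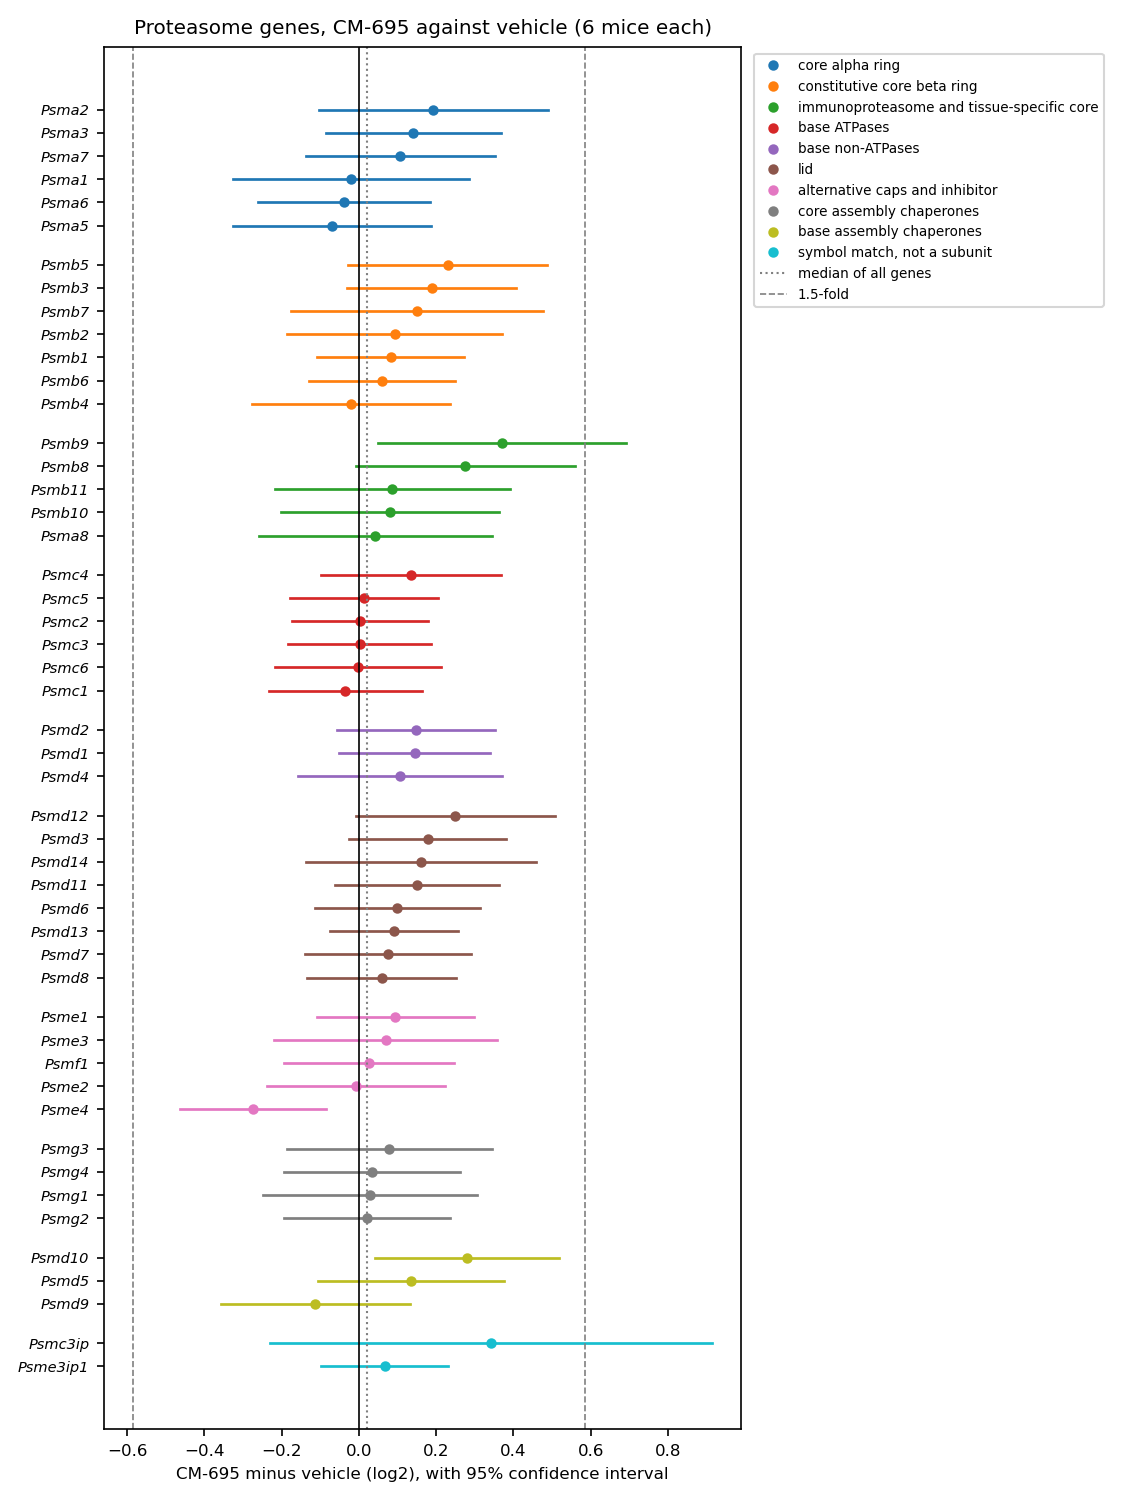
CM-695 minus vehicle for 49 proteasome genes, on the log2 scale, by functional class; points are differences and bars 95% confidence intervals (6 mice per group), the dotted line is the median of all genes and dashed lines mark 1.5-fold. Most points lie just right of 0, and the intervals of Psmb9, Psmd10 and Psme4 leave out 0.

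**Figure D2:**
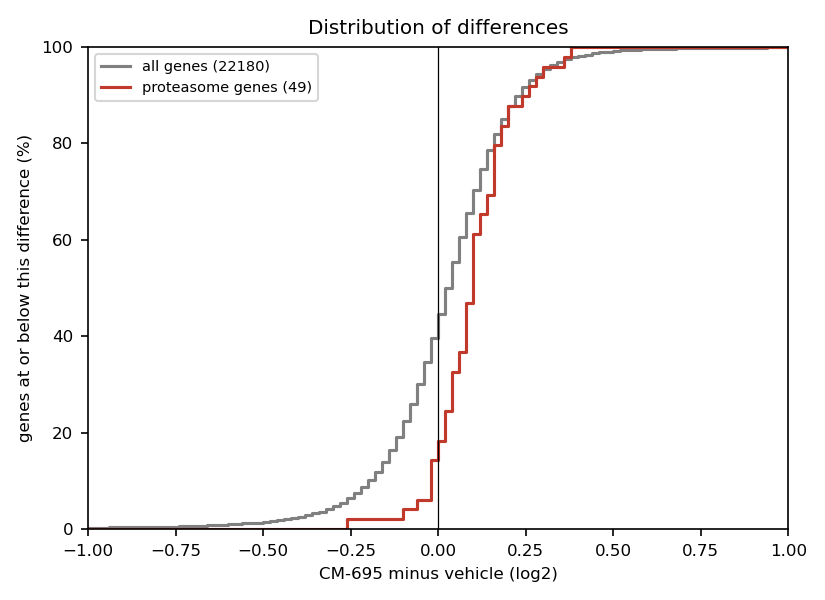
Cumulative share of genes, in percent, at or below each difference (log2) for 49 proteasome genes and for all 22180 genes. The proteasome curve lies to the right of the curve of all genes around 0, and both approach each other above 0.2.

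The constitutive core particle, 13 measured genes, had a median difference of 0.09. It was 0.05 without vehicle mouse 4, 0.06 without vehicle mouse 3 and 0.17 without CM-695 mouse 2. With a marker mean as a covariate it was 0.02 (adipocyte), 0.03 (leukocyte), 0.05 (smooth muscle) or 0.15 (heart muscle). In the alpha ring, which gates entry to the barrel, 3 of 6 genes lay above 0 and 0 passed. Psma2 had the highest difference of this ring. It measured 7.84, 8.17 and 8.29 (lowest, median and highest mouse) after vehicle and 7.83, 8.38 and 8.71 after CM-695. The groups overlapped, and 4 treated mice exceeded all vehicle mice while 1 lay below them all. Its difference was 0.19 (SE 0.14, adjusted p = 0.715), and that of Psma3 was 0.14 (SE 0.11, adjusted p = 0.728). Psma5 was lowest at -0.07. Both of its probe sets were under the median of all probe sets, so these values do not separate weak from absent signal.

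In the constitutive beta ring 6 of 7 genes lay above 0 and 0 passed. Psmb5, which carries the chymotrypsin-like site and is the target of bortezomib, measured 7.31, 7.74 and 7.94 after vehicle and 7.73, 7.92 and 8.12 after CM-695. Here 3 treated mice exceeded the vehicle range and the others lay inside it. The difference was 0.23 (SE 0.12, 95% confidence interval -0.03 to 0.49, adjusted p = 0.592). With the heart muscle marker mean as a covariate it was 0.12 (SE 0.16). The structural gene Psmb3 differed by 0.19 (SE 0.10, adjusted p = 0.607), with 4 treated mice above the vehicle range. The other 2 catalytic genes, Psmb6 and Psmb7, which carry the caspase-like and trypsin-like sites and were named after seeing their values, differed by 0.06 (SE 0.088) and 0.15 (SE 0.15).

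The 3 immunoproteasome genes had a median difference of 0.28, which is the value of Psmb8, and 0 passed. This was the largest median among core, regulatory particle, immunoproteasome and assembly factors. With the tissue-specific core genes Psmb11 and Psma8 added, the median over 5 genes was 0.09, below that of the lid (0.12). Psmb9, which takes the place of Psmb6, measured 5.55, 5.90 and 6.29 after vehicle and 5.89, 6.31 and 6.54 after CM-695. Treated mice 3, 5 and 6 exceeded every vehicle mouse, and the other 3 lay within the vehicle range. The difference was 0.37 (SE 0.15, 1.29-fold, adjusted p = 0.471). Psmb8, which takes the place of Psmb5, measured 6.19, 6.65 and 6.87 after vehicle and 6.57, 6.86 and 7.12 after CM-695, again with treated mice 3, 5 and 6 above the vehicle range. Its difference was 0.28 (SE 0.13, adjusted p = 0.557). Psmb10, which takes the place of Psmb7, differed by 0.08 (SE 0.13; named after seeing its values), with only treated mouse 4 above the vehicle range.

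Leukocytes carry immunoproteasomes at rest, and leukocyte markers differed in the same direction as Psmb9 and Psmb8. Ptprc, which encodes the leukocyte antigen CD45, measured 4.87 to 5.73 after vehicle and 4.95 to 5.98 after CM-695, and was named after seeing its values. With the leukocyte marker mean as a covariate, an alternative chosen after seeing the data, Psmb9 differed by 0.27 (SE 0.15) and Psmb8 by 0.22 (SE 0.14). With the adipocyte marker mean the differences were 0.30 and 0.23. They were 0.31 and 0.24 with the smooth muscle marker mean, and 0.49 and 0.35 with the heart muscle marker mean. Psmb9 was above an unadjusted limma p of 0.05 with the leukocyte or adipocyte covariate, and under it with the smooth or heart muscle covariate. Psmb8 was above it in each of these fits and without a covariate. The part of leukocytes in these differences was not tested beyond these fits. The tissue-specific genes Psmb11 of the thymus and Psma8 of the testis, both named after seeing their values, were under the median of all probe sets and differed by 0.09 (SE 0.14) and 0.04 (SE 0.14).

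Set against its constitutive counterpart on the same array, no immunoproteasome gene differed past the threshold. The log2 ratio of Psmb9 to Psmb6 was higher by 0.31 after CM-695 (SD 0.30 after CM-695 and 0.22 after vehicle, n = 6 each), with the highest vehicle mouse exceeded by 4 treated mice (exact two-sided permutation test, p = 0.0736, adjusted p = 0.221 over 3 pairs). For Psmb8 to Psmb5 the change was 0.05 (exact permutation test, p = 0.797, adjusted p = 0.797). For Psmb10 to Psmb7 it was -0.07 (exact permutation test, p = 0.500, adjusted p = 0.750). The smallest p this test can give with 6 against 6 mice is 0.00216. The pairs were chosen after the single values had been seen. Leaving out each mouse in turn gave 0.23 to 0.38, -0.04 to 0.13 and -0.13 to -0.02 for these changes, in the same order.

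The interferon-gamma and antigen presentation genes, a pathway list of 12 genes with 9 measured, had a median of 0.03, with 7 above 0, 2 below and 0 past the threshold. H2-K1, a class I presenting molecule, differed by 0.70 (SE 0.27, adjusted p = 0.447). It measured 7.76, 8.47 and 9.52 after vehicle and 8.89, 9.27 and 9.78 after CM-695, so the vehicle mice spanned a wide range and the groups overlapped. H2-K1 has close relatives in the genome whose transcripts may share its probes, so its own value is uncertain. Irf1, the interferon-induced activator of these genes, differed by 0.12 (SE 0.12), with 0.06 to 0.19 when 1 mouse was left out, and the peptide-trimming gene Erap1 by -0.23 (SE 0.11). The receptor gene Ifngr1 differed by -0.29 (SE 0.19), and by -0.12 without CM-695 mouse 2, whose value of 7.93 was the lowest. Tap1, a peptide transporter gene that neighbours Psmb9, differed by 0.06 (SE 0.14; named after seeing its values).

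**Figure D3:**
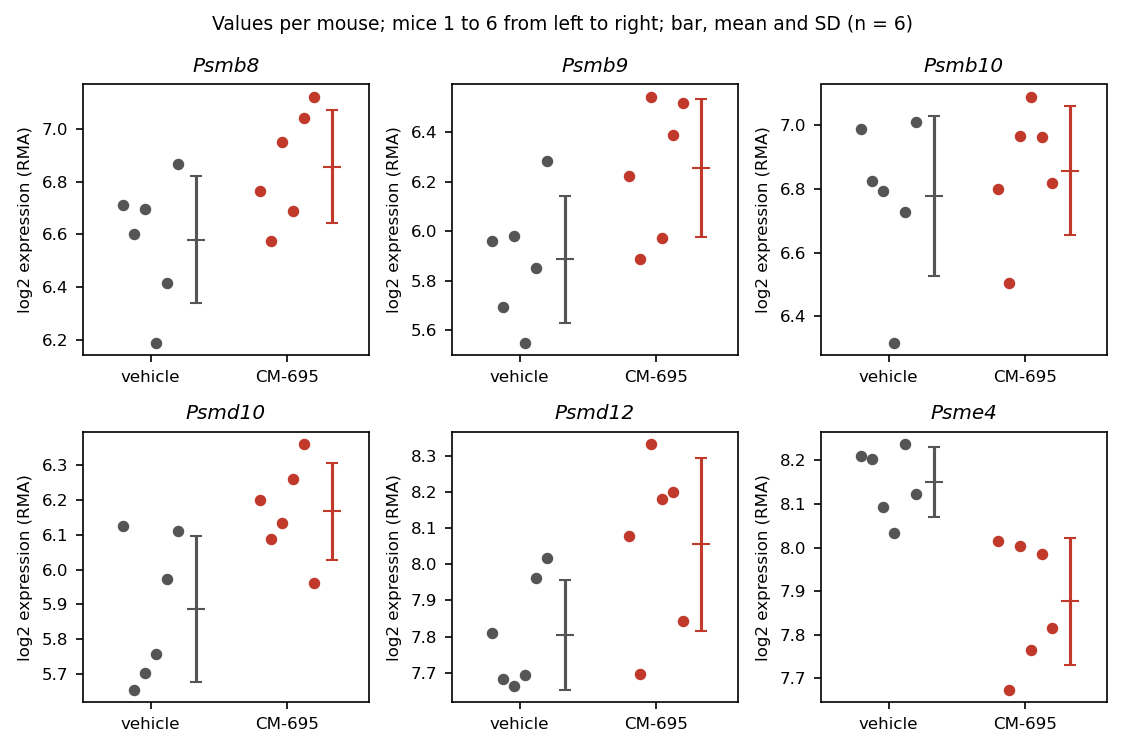
Log2 expression (RMA values) of 6 proteasome genes in each mouse, vehicle in grey and CM-695 in red, with mean and SD (n = 6) to the right of the points. Only Psme4 has its groups apart, with every treated mouse below every vehicle mouse.

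The regulatory particle, 17 measured genes, had a median of 0.10, with 15 above 0 and 0 past the threshold. Its median was 0.06 without CM-695 mouse 1, and 0.03 and 0.02 with the adipocyte and leukocyte covariates. Its 6 ATPases, the motor that unfolds substrates, had a median of 0.00 and ran from -0.03 (Psmc1) to 0.13 (Psmc4). Psmc4 measured 7.86, 8.12 and 8.29 after vehicle and 8.09, 8.23 and 8.46 after CM-695, overlapping ranges that gave an SE of 0.11 and an adjusted p of 0.749 in limma. The SE of Psmc1 was 0.092 (adjusted p = 0.941). The 95% confidence intervals of the 6 ATPase genes all lay within 1.5-fold. Psmd1, a scaffold gene of the base, differed by 0.14 (SE 0.091, adjusted p = 0.668), with 4 treated mice above the vehicle range. The other scaffold gene, Psmd2, differed by 0.15 (SE 0.095, adjusted p = 0.673), with 3 above it.

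In the lid, which holds the deubiquitinase that removes ubiquitin chains, 8 of 8 genes lay above 0, with a median of 0.12 and 0 past the threshold. Over all genes 55.3% lay above 0, and the lid genes vary together between mice (mean correlation within groups 0.40). Psmd8 fell below 0 with the adipocyte covariate, and Psmd7 with the leukocyte covariate. Psmd12, a scaffold subunit, measured 7.66, 7.75 and 8.02 after vehicle and 7.70, 8.13 and 8.33 after CM-695. Treated mice 1, 3, 4 and 5 exceeded the vehicle range, and mice 2 and 6 lay inside it. Its difference was 0.25 (SE 0.12, adjusted p = 0.558), and it was 0.14 with the leukocyte or the adipocyte marker mean as a covariate. The lid gene Psmd3 differed by 0.18 (SE 0.094, adjusted p = 0.600), and the lid's lowest difference was 0.06 (Psmd8). The deubiquitinase gene itself, Psmd14, differed by 0.16 (SE 0.14; named after seeing its values), with 4 treated mice above the vehicle range and mouse 2 below it.

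Among the alternative caps, Psme4 was lower in every treated mouse than in any vehicle mouse. Psme4 encodes PA200, a nuclear cap of the core particle linked to the breakdown of acetylated histones. It measured 8.03, 8.16 and 8.24 after vehicle and 7.67, 7.90 and 8.01 after CM-695, with treated mice 2 and 4 lowest. The difference was -0.27 (SE 0.088, 95% confidence interval -0.46 to -0.08, 1.21-fold), and it did not pass over all probe sets (limma adjusted p = 0.343). It was the only member of 49 with such a gap, and 0.636% of all genes had every treated mouse below every vehicle mouse. Leaving out each mouse in turn gave -0.30 to -0.23. With the heart muscle marker mean as a covariate the difference was -0.21 (SE 0.12, adjusted p = 0.780), and with the smooth muscle marker mean -0.31 (SE 0.071, adjusted p = 0.112). The heart muscle marker mean differed between the groups, and the SE with it was larger than without it. The part of heart muscle in the difference of Psme4 was not tested.

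The other cap genes had differences nearer 0, and their contrast with Psme4 was not tested. Psme1, which encodes the alpha chain of the interferon-induced cap PA28, differed by 0.09 (SE 0.094, adjusted p = 0.804). The partner chain gene Psme2, the nuclear cap gene Psme3 and the inhibitor gene Psmf1, all named after seeing their values, differed by -0.01 (SE 0.11), 0.07 (SE 0.13) and 0.03 (SE 0.10). No member had every treated mouse above every vehicle mouse, a pattern of 0.442% of all genes.

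The assembly factors, 7 genes, had a median of 0.03 and 0 passed. With 1 mouse left out, this median ran from 0.01 (without vehicle mouse 4) to 0.09 (without vehicle mouse 6). Psmd10, which encodes gankyrin, a chaperone of the base ATPases, measured 5.65, 5.87 and 6.13 after vehicle and 5.96, 6.17 and 6.36 after CM-695. Treated mice 1, 3, 4 and 5 exceeded the vehicle range, and the groups overlapped through vehicle mice 1, 5 and 6. The difference was 0.28 (SE 0.11, 95% confidence interval 0.04 to 0.52, adjusted p = 0.459). The base chaperone gene Psmd5 differed by 0.14 (SE 0.11, adjusted p = 0.754), and the further base chaperone gene Psmd9 by -0.11 (SE 0.11; named after seeing its values). The 4 core chaperone genes, whose products guide the alpha ring, lay between 0.02 (Psmg2) and 0.08 (Psmg3, SE 0.12, adjusted p = 0.887), with Psmg4 at 0.03 (SE 0.11). Psmg2 had a further, dim probe set that differed by 0.25 (SE 0.098), so its 2 probe sets did not give the same size. The non-subunits Psmc3ip, a meiotic recombination factor, and Psme3ip1, a partner of PA28 gamma, differed by 0.34 (SE 0.27) and 0.07 (SE 0.076), with limma adjusted p of 0.737 and 0.832.

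The members of the core and regulatory particle varied together between mice of the same group. Over 12 mice, after the group means had been removed, the mean correlation between pairs of these 30 constitutive subunit genes was 0.41. It was 0.73 for the 3 immunoproteasome genes and 0.058 for the 4 core chaperone genes. Over all genes it was 0.0011, and over genes whose mean exceeded the median of all probe sets 0.0077. Normalization between arrays holds such wide averages near 0, so they do not show how other sets of related genes compare. These are descriptions of shared variation, and the arrays that carry it are the same for every pair. By mouse, 18, 9, 4, 4, 28 and 23 of the 30 genes lay above their vehicle mean in vehicle mice 1 to 6. In CM-695 mice 1 to 6 the numbers were 24, 10, 26, 28, 27 and 17. Vehicle mice 5 and 6 thus lay among the treated mice and treated mouse 2 among the vehicle mice, and vehicle mouse 1 stood slightly above treated mouse 6. The median deviation of the 30 genes from the vehicle mean ran from -0.11 to 0.14 in vehicle mice and from -0.12 to 0.17 in treated mice.

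Mouse 2 of the CM-695 group had the highest value of Hspa1a, 7.72, a gene named after seeing its values. The same mouse had the lowest median deviation of the 30 subunit genes among treated mice, -0.12. Mouse 4 of that group, with Hspa1a at 7.64, stood at 0.17. Hspa1a, a stress-induced chaperone gene, ran from 3.91 to 5.07 in vehicle mice and from 5.77 to 7.72 in treated mice. Its relation to the subunit genes was not tested, and mouse 2 also had the extreme smooth muscle and adipocyte levels given above. Without mouse 2 the members' median was 0.11, with 44 of 49 above 0, 7 higher and 1 lower at an unadjusted p under 0.05, and 0 past the threshold (lowest limma adjusted p 0.297). Leaving it out moved 25 of 49 members by over 1.5 times, against 13 to 22 for the other mice, and turned the sign of 8. Examples are Psma2 at 0.29, Psmb7 at 0.27 and Psmd14 at 0.27 without it. The median within-group SD was 0.15 for the 30 subunit genes. It was 0.19 over genes whose mean exceeded the median of all probe sets, and 0.21 over all genes.

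**Figure D4:**
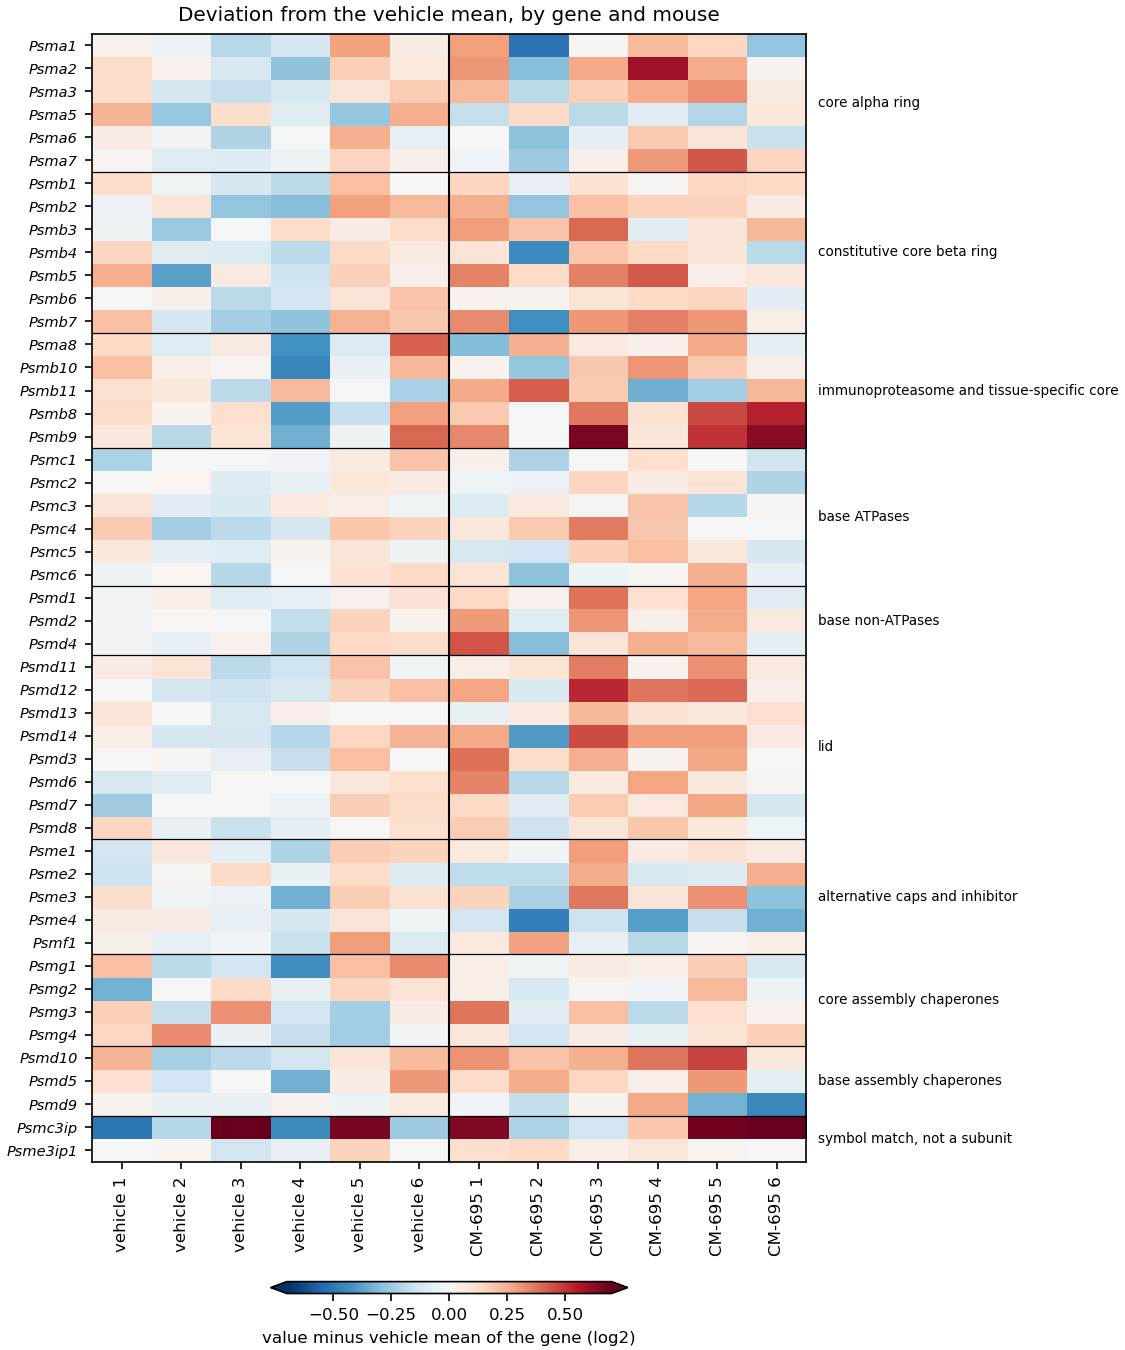
Deviation of each proteasome gene (rows, by class) from its vehicle mean in each of 12 mice (columns), on the log2 scale, with blue below and red above the vehicle mean; colours end at 0.7 either way. Columns of mostly 1 colour, such as vehicle mouse 4, show subunits shifting together, and Psme4 is blue in all 6 treated mice.

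Other genes of the pathway were taken from lists of proteasome-associated proteins, regulators and delivery factors. Of 8 measured proteasome genes with other symbols, 7 lay above 0, the median was 0.09 and 0 passed. Sem1, the smallest lid subunit, measured 8.73, 8.79 and 8.85 after vehicle and 8.89, 8.94 and 9.21 after CM-695, so every treated mouse exceeded every vehicle mouse. This order of groups was met by 0.442% of all genes. The difference of Sem1 was 0.19 (SE 0.079, adjusted p = 0.494). Pomp, which encodes the maturation factor of the core, differed by 0.17 (SE 0.080), Akirin2, which encodes a nuclear import factor of the proteasome, by 0.17 (SE 0.086), and Txnl1, which encodes a thioredoxin bound to the lid, by 0.10 (SE 0.090).

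Of 6 measured regulators of proteasome genes, 3 lay above 0 and 3 below, and 0 passed. Nfe2l2, which encodes the antioxidant response factor NRF2, measured 7.94, 8.06 and 8.32 after vehicle and 7.68, 7.75 and 7.90 after CM-695. Every treated mouse lay below every vehicle mouse, as in 0.636% of all genes, and the difference was -0.32 (SE 0.087, adjusted p = 0.230). Stat3 showed the same order of groups, 8.27 to 8.52 after vehicle and 7.80 to 8.23 after CM-695, with a difference of -0.26 (SE 0.092, adjusted p = 0.409). Nfe2l1, which encodes NRF1, differed by 0.02 (SE 0.084, 95% confidence interval -0.16 to 0.20; named after seeing its values). Hsf2, a heat shock factor gene, differed by -0.20 (SE 0.10), and Ngly1, which encodes the deglycosylase that NRF1 needs for its processing, by 0.10 (SE 0.15; 0.03 without vehicle mouse 4 and 0.20 without CM-695 mouse 2).

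Of 9 measured genes for delivery of ubiquitinated proteins, 8 lay above 0, the median was 0.13 and 0 passed. Ubqln1, a shuttle that binds ubiquitin chains and the proteasome, measured 7.85, 8.19 and 8.47 after vehicle and 8.11, 8.66 and 8.82 after CM-695, with 4 treated mice above the vehicle range. Its difference was 0.41 (SE 0.14, adjusted p = 0.395). Ufd1, an adaptor gene of the unfoldase p97, differed by 0.23 (SE 0.088, adjusted p = 0.443), and its partner Nploc4 by 0.17 (SE 0.089, limma adjusted p 0.592). Zfand5, a proteasome activator gene, differed by -0.18 (SE 0.094, adjusted p = 0.589). None of the 4 ubiquitin genes listed was measured by a probe set of its own.

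Members with and without a regulatory motif in the promoter window were set side by side as a description. RefSeq windows of equal length were used for 41 members. The antioxidant response element core in either form was matched in 16 of 41 members and in 27.8% of all 32851 promoters. The median difference was 0.08 for the 16 members with a match and 0.09 for the 25 without, and Psme4 and Psmd12, with differences of opposite sign, both held it. GGGCGG was matched in 23 of 41 members and 35.7% of all promoters, CCAAT in 16 and 37.4%, and the E-box CACGTG in 4 and 7.15%. The heat shock element was matched in 0 of 41 and 0.603% of all promoters. The interferon-gamma activated site TTCNNNGAA was matched in 3 (Psmb8, Psmd2 and Psmg1) and 8.30%, and the core of the interferon-stimulated response element in 5 and 3.44%. All searches covered both strands, and some motifs can overlap.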

How the data were processed

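The deposited log2 values were made by the authors with RMA, per the submitters' processing notes (software: not given in the sources used here). RMA usually means background correction, normalization between arrays and 1 summary per probe set. There were 41345 probe sets on 12 arrays and no detection calls, so dim values may be weak or absent expression. The platform annotation gives 23521 probe sets a single gene and 1814 more than 1 gene; the remaining 16010 are unnamed here. For a gene with several probe sets (3 of 49 members), that with the highest mean over 12 arrays was used. All 49 members matched a RefSeq gene by identifier, with 0 changed symbols.

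CM-695 (6 mice) was compared with vehicle (6 mice) with lmFit and eBayes of limma 3.58.1 (R 4.3.3, two-sided), fitted to all probe sets, with Benjamini-Hochberg adjustment over all of them and a threshold of 0.05. The fit was also run on simulated data with independent noise and planted changes larger than any member's difference. That run does not cover small differences in genes that vary together. Log2 ratios of gene pairs were tested by exact permutation over all 924 assignments. The number of mice limits the precision. Values in the text cover members at an unadjusted p under 0.05, otherwise the 2 of each class with the smallest p. They also cover the extremes over all members and up to 4 genes of each pathway list. Any other gene was named after seeing its values. Most are marked so, but Psma5, Psmd7, Psmd8, Psmg1, Psmg2 and the genes with further probe sets are not. The members and lists were chosen with earlier results of these data known. Alternatives were a replicate block, a filter on dim probe sets, repeated quantile normalization, median centring, array weights, eBayes with trend and robust, marker means as covariates, other probe set rules and leaving out each mouse.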

Additional observations from a re-analysis of the deposited data

Results flagged for a closer look

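Among 130 groups of 6 mice checked, 4 held a mouse whose gap to its nearest neighbour was a larger share of the group's range than Dixon's 95% critical value; chance gives about 1 in 20. All 4 were in the CM-695 group and in pathway genes outside the 49 members. Sem1, a lid subunit gene, was highest in mouse 4 at 9.21, with the next mouse at 8.98. Akirin2, the nuclear import factor gene, was highest in mouse 2 at 8.19, with the next at 7.91. Hsf2, the heat shock factor gene, was highest in mouse 3 at 5.72, with the next at 5.48. Stat3, a transcription factor gene, was lowest in mouse 1 at 7.80, with the next at 8.08. No proteasome member met this limit in either group.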

How the results depend on the processing

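The count of members past the threshold was 0 in all 24 alternatives, and the lowest adjusted p of any member in any of them was 0.112 (limma). The median over the members, 0.08 as reported, stayed above 0 in all of them, at 0.03 to 0.12. It ran from 0.02 to 0.17 for the core and from 0.02 to 0.14 for the regulatory particle. For the immunoproteasome it ran from 0.20 to 0.35, and for the assembly factors from 0.01 to 0.09. Each median moved by less than its SD between mice (0.10 for the members). Except for the immunoproteasome these SDs exceed the medians themselves, so that comparison does not show that the medians are stable. The count of members at an unadjusted p under 0.05, 3 as reported, was 6 after repeated quantile normalization, 5 with array weights, and 1 with the adipocyte or the leukocyte marker mean as a covariate. It was 1 to 8 with 1 mouse left out: 1 without vehicle mouse 2, vehicle mouse 4 or CM-695 mouse 5; 5 without vehicle mouse 5, vehicle mouse 6 or CM-695 mouse 4; and 8 without CM-695 mouse 2. Over 23 of the alternatives (without the one that allowed probe sets naming several genes), 26 of 49 members had the reported sign in every one that measured them and 23 turned in at least 1 (15 with a mouse left out). The largest difference that turned was 0.15 (Psmb7, adipocyte covariate); 8 turned with that covariate, 9 with the leukocyte covariate and 5 without vehicle mouse 4. Among the genes named by rule, Psmg3 was -0.0560 with the heart muscle covariate, Ngly1 -0.0395 with the adipocyte and -0.0306 with the leukocyte covariate, Psmg4 -0.014 without vehicle mouse 5 (range with 1 mouse left out -0.014 to 0.10), and Psmc1 0.0051 without vehicle mouse 6 and 0.0015 without CM-695 mouse 2 (range -0.079 to 0.0051); the cause was not tested. Over all probe sets, the deviations of same-numbered mice correlated at -0.10 to 0.10. This shows no broad sharing, but it cannot exclude a pairing that acts on some genes only. With the replicate number as a block the count past the threshold was 0, the count at an unadjusted p under 0.05 was 4 and the median was 0.08. Signal over background limits Psma5, Psma8, Psmb11 and Psmg4, whose probe sets were under the median of all probe sets.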

Other observations

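Psma4 and some members were measured by probe sets that name further genes, and these stayed out of the comparison. A probe set naming Psmd1 with another gene differed by 0.03 (SE 0.090), against 0.14 for the probe set of Psmd1 alone. The brighter probe set shared by Psma4 and another gene differed by 0.04 (SE 0.11), and the dimmer by -0.11 (SE 0.14). A probe set naming Psme2 with 2 other genes differed by 0.37 (SE 0.17, limma adjusted p = 0.532), whereas the probe set of Psme2 alone differed by -0.01. A second probe set of Psmc2, a base ATPase gene, differed by 0.18 (SE 0.14), against 0.00 for the brighter. A second probe set of Psma5 differed by 0.16 (SE 0.22).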
